A study of Mus musculus with 4 samples.

Results

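The 10 genes described here are transcription factors that lay out the midbrain and hindbrain: Otx1, Otx2, En1, En2, Pax2, Pax5, Pax8, Gbx2, Irx1 and Irx2. They were chosen by symbol, and all 10 were found among the 54532 gene IDs of the count table. The values are RNA sequencing counts from microdissected cranial neural tubes of mouse embryos at embryonic day 10.5. Each of the groups, Control and DCKO, had 2 embryos with 1 library per embryo. DCKO embryos were Lats1 flox/flox and Lats2 flox/flox and carried the transgene E2f1 Tg(Wnt1-cre)2Sor/+, in which Wnt1 regulatory sequences drive Cre in the dorsal neural tube and neural crest. Control embryos lacked that transgene, and whether they carried floxed alleles is not stated. LATS1 and LATS2 are kinases of the Hippo pathway that hold back YAP and TAZ, and the series title names the dorsal cranial neuroepithelium as the tissue in question.

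In the early brain, Otx2 marks forebrain and midbrain and Gbx2 the anterior hindbrain, and the border where they meet becomes the isthmic organizer. This signalling centre releases FGF8 and WNT1, and the Engrailed genes En1 and En2 and the paired-box genes Pax2, Pax5 and Pax8 are expressed around it. Irx1 and Irx2 are Iroquois homeobox genes of neural patterning. Wnt1 itself is a gene of the midbrain and isthmus, so the territory of these factors overlaps that of the Cre driver.

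Of the 4 members that passed the test across all genes, Otx2 was higher in DCKO and Pax2, Irx1 and Irx2 were lower. As reference sequence for these genes, the 250 bases before a RefSeq transcription start (GRCm38.p6) are given for Otx2, Pax2 and Irx2. Which start is used in this tissue was not tested. No such window was used for Irx1. Capitals mark TAATTA, the core recognised by many homeodomain proteins, which reads the same on both strands.

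Otx2, chr14:48667645-48667894, minus strand: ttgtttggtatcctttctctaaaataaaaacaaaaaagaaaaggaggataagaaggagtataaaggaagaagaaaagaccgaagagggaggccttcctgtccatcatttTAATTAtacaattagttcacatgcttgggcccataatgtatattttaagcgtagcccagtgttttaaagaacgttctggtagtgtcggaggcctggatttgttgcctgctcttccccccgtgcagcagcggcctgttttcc
Pax2, chr19:44755502-44755751, plus strand: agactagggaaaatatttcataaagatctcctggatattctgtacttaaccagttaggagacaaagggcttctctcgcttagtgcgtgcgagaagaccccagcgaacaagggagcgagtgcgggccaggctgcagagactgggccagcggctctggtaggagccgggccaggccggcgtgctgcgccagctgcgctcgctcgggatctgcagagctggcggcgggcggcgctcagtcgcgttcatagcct
Irx2, chr13:72628570-72628819, plus strand: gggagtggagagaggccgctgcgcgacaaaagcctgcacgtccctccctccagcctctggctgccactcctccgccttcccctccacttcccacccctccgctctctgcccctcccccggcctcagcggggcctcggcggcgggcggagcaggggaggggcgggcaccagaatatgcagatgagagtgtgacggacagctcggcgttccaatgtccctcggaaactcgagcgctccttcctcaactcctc

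The Otx2 window is the most AT-rich of the 3 shown, with 42.0% G and C against 60.8% for Pax2 and 68.4% for Irx2. Windows of the other Otx2 starts had 49.2%, 48.4% and 53.6%, and those of the other Pax2 starts 52.8% and 72.8%. The order thus depends on the start shown. The Otx2 window shown holds TAATTA 141 bases before the start, and the Pax2 and Irx2 windows shown hold none. Among the 12 windows of the 7 members with an entry, 2 hold this core, against 4.8% of 32851 such windows of all genes. Both belong to Otx2, the second to another start of the gene with 3 copies, while the windows of its other 2 starts hold none. The letters GGAATG or its reverse complement CATTCC, the core bound by the TEAD partners of YAP, were in 0 of the 12 and in 12.6% of all windows. TAATCC or GGATTA, the core bound by OTX proteins, were in 1 of the 12, at another start of Otx2, and in 6.3% of all windows. These matches describe letters in short windows and show no binding.

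Totals per library ranged from 41798361 to 55137810 counts, and the lowest count of any member in any library was the 10 of Pax2 in DCKO 1. Values are given as CPM, the depth-scaled unit of counts with TMM factors (trimmed mean of M values), unless they are called TPM, the unit that is also scaled by gene length. Lats1 measured 44.2 and 65.6 CPM in the Control embryos, against 30.0 and 29.7 in the DCKO embryos (log2 fold change -0.88, adjusted p 0.0538 in edgeR). Lats2 measured 26.7 and 13.3 in the Control embryos, against 21.2 and 35.3 in the DCKO embryos, so its level does not check the genotype, and which exons were floxed is not given in the sources used here. Xist, the RNA that coats an inactive X, was counted 10837 and 7786 times in the Control libraries but 8 and 22 times in the DCKO libraries, so embryo sex and the Cre transgene cannot be told apart from group.

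The Control embryos differed from each other in regional genes, and this bears on 5 of the 10 members. En1, En2, Pax5, Pax8 and Gbx2 were between 1.67 and 2.18 times as high in Control 1 as in Control 2. Over all tested genes, 8.06% were at least 1.5 times as high in Control 1. All 16 genes of a list of isthmic signals and their feedback genes were higher in Control 1, against 49.2% of all tested genes, and 10 of them by at least 1.5 times. Of 14 forebrain transcription factors, 13 were at least 1.5 times as high in Control 2, against 13.4% of all tested genes. Their summed level was 28.1 CPM in Control 1, 175.9 in Control 2, 23.6 in DCKO 1 and 29.7 in DCKO 2. Control 2 thus held far more forebrain RNA than the other 3 libraries. The 8 pan-neural progenitor genes showed no gap of that size, with 0 of 8 at 1.5 times in either direction. By direction alone, 7 of the 8 were higher in Control 2. Whether the brain regions included in each dissection differed was not tested.

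**Figure D1:**
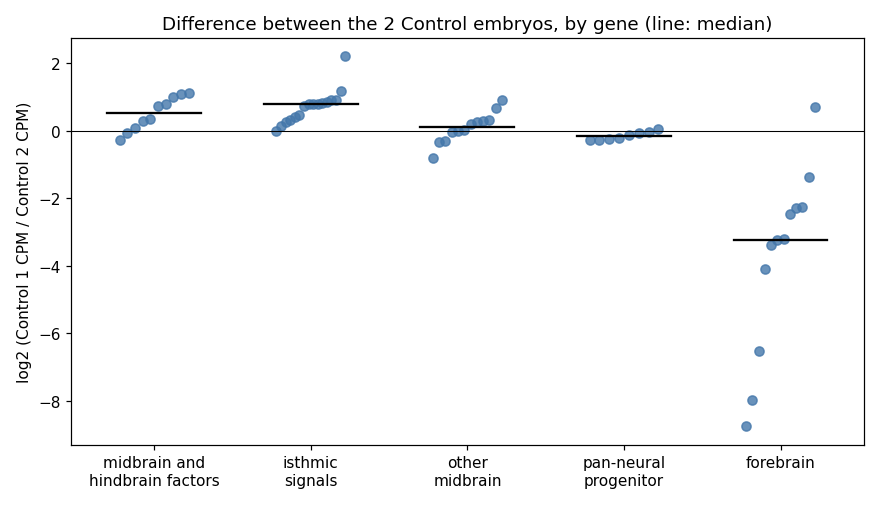
Each point is a gene, placed by the log2 ratio of its CPM in Control 1 to its CPM in Control 2, with gene lists along the horizontal axis and a line at each list's median; genes with 0 counts in either library are left out. Isthmic signals lie above 0 in all 16 cases, while forebrain genes lie mostly far below it, and the 10 midbrain and hindbrain factors spread from Otx1, Otx2 and Irx genes near 0 to En1, Pax5 and Pax8 near 1.

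The dissected tissue was checked against genes of hindbrain segments. Of 15 genes, 10 of them Hox genes, only 6 were expressed enough to be tested, and the summed level of the 15 was between 12.4 and 15.8 CPM in every library. Hoxd3, Hoxa4 and Hoxd4 were at 0 in all 4 libraries. Hoxb2, the gene with the smallest p of the list, measured 0.0639 and 0.158 CPM in the Control embryos, against 0.300 and 2.60 in the DCKO embryos (adjusted p 0.0845 in edgeR). Little RNA from the Hox-expressing hindbrain was therefore measured. Otx1, Otx2, En1, En2 and Pax5 were each above that summed level in every library. Pax2 and Gbx2 were below it in every library, and Pax8 was above it only in DCKO 1.

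By TPM, which allows levels of different genes to be set side by side, 4 members led in Control. Otx2 had 61.9 and 55.2 TPM, En2 72.0 and 34.2, Irx1 56.7 and 38.2, and Irx2 56.0 and 38.0, and the ranges of these 4 overlapped. Otx1 (19.9 and 20.9 TPM), En1 (25.6 and 10.5) and Pax5 (15.1 and 6.13) formed a middle tier, with En1 overlapping both of the others. Pax8 (5.75 and 2.25 TPM), Gbx2 (3.79 and 1.89) and Pax2 (2.59 and 2.02) were lowest, and their ranges overlapped. In DCKO this order was different at the top and at the bottom. Otx2, at 94.7 and 122.7 TPM, stood well above Irx1, the next member, at 22.5 and 26.1. En2 (20.4 and 9.32 TPM), Irx2 (16.1 and 14.2), Otx1 (11.6 and 13.6), Pax5 (13.1 and 8.59) and En1 (11.2 and 11.6) lay close together, with the ranges of En2 and Pax5 spanning most of the tier. Pax2, at 0.105 and 0.206 TPM, was lowest.

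Across all genes, 1558 of 19207 tested genes were lower in DCKO (8.11%) and 1716 were higher (8.93%), together 17%, at an adjusted p under 0.05 in edgeR. All 10 members had enough counts to be tested. Of them, 3 were lower, 1 was higher and 6 did not pass. Their median log2 fold change was -0.63, against 0.03 over all tested genes. Both DCKO libraries lay below both Control libraries for 5 members, against 32.9% of all tested genes, and above them for 1 member, against 33.6%. For the other 4, En1, Pax5, Pax8 and Gbx2, the groups overlapped. Those 4 are among the 5 that differed most between the Controls. When either Control was left out, 0 members passed in edgeR, in fits whose spread rests on the DCKO pair alone. At an unadjusted p under the same threshold, 1 member was then higher and 2 were lower without Control 1, against 10.4% and 9.24% of all tested genes. Without Control 2, 1 was higher and 5 were lower, against 10.7% and 10.1%.

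**Figure D2:**
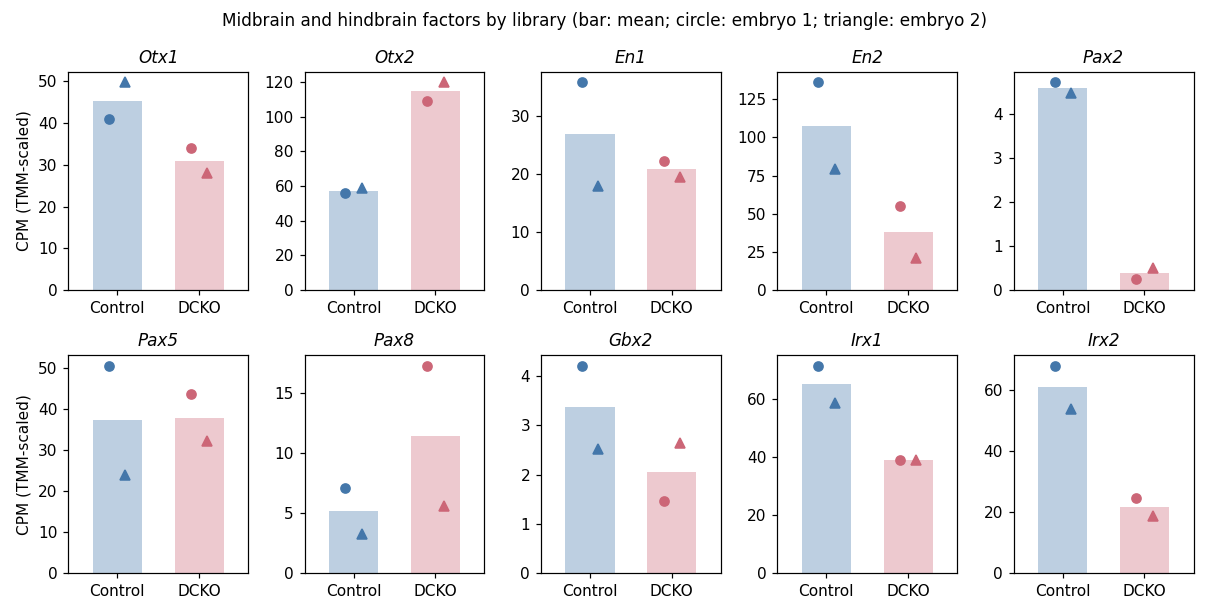
Each panel gives 1 gene, with TMM-scaled CPM on a vertical axis that starts at 0, a bar for the mean of each group of 2 and a symbol for each embryo. Otx2 is higher in both DCKO embryos, Pax2, Irx1, Irx2, En2 and Otx1 are lower in both, and the groups overlap for En1, Pax5, Pax8 and Gbx2.

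Otx2 (ENSMUSG00000021848, chromosome 14, 48657677 to 48673819 on GRCm38), the homeobox gene required for forebrain and midbrain identity, rose in DCKO. It measured 55.8 and 58.7 CPM in the Control embryos, against 109.3 and 119.9 in the DCKO embryos. Both DCKO embryos were well above both Controls, and the embryos of each group were close to each other. The fitted change was 2.00-fold, or 1.00 on the log2 scale (SE 0.16, edgeR adjusted p 0.0179). Without Control 1 and without Control 2 the log2 fold change was 0.96 and 1.01, close to that of all libraries, but the adjusted p was 0.142 and 0.134. The locus overlaps Otx2os1 on the opposite strand, which measured 2.14 and 2.06 CPM in the Control embryos, against 1.75 and 1.22 in the DCKO embryos, far below Otx2. In the authors' deposited table, Otx2 had a log2 fold change of 1.06 and a false discovery rate of 0.000566.

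Otx1 (ENSMUSG00000005917, chromosome 11, 21994764 to 22002897), its paralog, did not pass the test. It measured 41.0 and 49.8 CPM in the Control embryos, against 33.9 and 28.1 in the DCKO embryos, lower in both DCKO embryos. The fitted difference was -0.55 on the log2 scale (SE 0.19, edgeR adjusted p 0.103), which missed the threshold. Scaled to library totals, which moves the median of all genes from 0.03 to -0.32, it was -0.90 with an adjusted p of 0.0249. Within each library, the log2 ratio of Otx1 to Otx2 was -0.45 and -0.24 in Control and -1.69 and -2.10 in DCKO, so the balance of the pair differed in both DCKO embryos. Here and for the other 5 ratios below, an exact two-sided permutation test gave p = 0.333, the smallest that 2 against 2 libraries allow, and adjustment over the 6 ratios leaves it there.

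Gbx2 (ENSMUSG00000034486, chromosome 1, 89927956 to 89931179), the hindbrain counterpart of Otx2 at the isthmic border, was low in all libraries. It measured 4.22 and 2.53 CPM in the Control embryos, against 1.47 and 2.65 in the DCKO embryos, with overlapping groups. The fitted difference was -0.71 on the log2 scale (SE 0.47, edgeR adjusted p 0.326). Gbx2 overlaps D130058E05Rik on the opposite strand, which measured 7.23 and 5.53 CPM in the Control embryos, against 2.72 and 3.79 in the DCKO embryos (adjusted p 0.0986 in edgeR). Since the use of strand in counting is not stated, reads of the pair cannot be told apart. The log2 ratio of Otx2 to Gbx2 was 3.73 and 4.54 in Control and 6.21 and 5.50 in DCKO. In CPM, which is not scaled by gene length, Otx2 thus exceeded Gbx2 in all 4 libraries, and by more in both DCKO embryos.

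En1 (ENSMUSG00000058665, chromosome 1, 120602418 to 120607992) and En2 (ENSMUSG00000039095, chromosome 5, 28165694 to 28172166) encode the Engrailed repressors, which act in midbrain and cerebellar development. En2 measured 136.1 and 79.1 CPM in the Control embryos, against 54.9 and 21.2 in the DCKO embryos. It was lower in both DCKO embryos, but each group spread widely, with Control 1 at 1.72 times Control 2 and DCKO 1 at 2.59 times DCKO 2. The log2 fold change of En2 was -1.50 (SE 0.50, adjusted p 0.0944 in edgeR), which did not pass. It did pass in DESeq2 (-1.55, adjusted p 0.00397), on TPM with a mean of at least 1 (-1.77, adjusted p 0.0175 in limma) and without DCKO 1 (-2.35, adjusted p 0.00912 in edgeR). Without DCKO 2 it was -0.97 (adjusted p 0.0898 in edgeR). The authors' deposited table gives En2 a log2 fold change of -1.44 and a false discovery rate of 0.00308.

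En1 measured 35.9 and 18.0 CPM in the Control embryos, against 22.3 and 19.6 in the DCKO embryos. Both DCKO values lay between the 2 Controls. Its log2 fold change of -0.36 (with SE 0.34 and adjusted p 0.490 in edgeR) took the opposite sign, 0.21, without Control 1. The log2 ratio of En1 to En2 was -1.92 and -2.13 in Control and -1.30 and -0.11 in DCKO. It was nearly the same in both Controls although each gene differed between them, and it was higher in both DCKO embryos, most of all in DCKO 2.

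Pax2 (ENSMUSG00000004231, chromosome 19, 44756045 to 44837871) fell furthest of the 10. This paired-box gene acts early at the midbrain-hindbrain border and later marks inhibitory neurons, and it is also expressed in the optic stalk and ear. Its counts were 296 and 227 in the Control libraries, against 10 and 19 in the DCKO libraries, which is 4.73 and 4.49 CPM against 0.250 and 0.514. The Controls were nearly equal, and neither DCKO embryo came near them. The fitted level was 12.0-fold lower, or -3.59 on the log2 scale (SE 0.49, edgeR adjusted p 0.0140). Without Control 1 or Control 2 the log2 fold change was -3.55 or -3.66 with adjusted p-values of 0.0702 and 0.0715. The authors' deposited table gives -3.53 with a false discovery rate of 9.32e-08.

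The related genes Pax5 and Pax8, which share the DNA-binding paired domain with Pax2, did not pass the test. Pax5 (ENSMUSG00000014030, chromosome 4, 44524757 to 44710487), also a B-cell factor, measured 50.6 and 23.9 CPM in the Control embryos, against 43.7 and 32.1 in the DCKO embryos. Both DCKO values lay between the Controls, and the fitted difference was 0.02 on the log2 scale (SE 0.38, edgeR adjusted p 0.970). Its sign turned with the scaling and with the libraries used, from 0.66 without Control 1 to -0.45 without Control 2, and it was -0.33 with library totals and -0.22 without DCKO 1. Of 4 genes that overlap Pax5, the opposite-strand 5730488B01Rik was the most abundant, with 7.03 and 3.66 CPM in the Control embryos, against 18.1 and 9.34 in the DCKO embryos (adjusted p 0.0969 in edgeR).

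Pax8 (ENSMUSG00000026976, chromosome 2, 24420560 to 24475599), a factor of ear, kidney and thyroid as well as the isthmus, measured 7.12 and 3.26 CPM in the Control embryos, against 17.2 and 5.63 in the DCKO embryos. DCKO 1 was the high library, and DCKO 2 lay between the Controls. The log2 fold change of 1.14 (with SE 0.63 and adjusted p 0.249 in edgeR) rested on DCKO 1. It was 0.11 without DCKO 1 and 1.72 without DCKO 2, where it passed (adjusted p 0.0349 in edgeR). The log2 ratio of Pax5 to Pax2 was 3.42 and 2.41 in Control and 7.45 and 5.97 in DCKO, and that of Pax8 to Pax2 was 0.59 and -0.46 in Control and 6.11 and 3.45 in DCKO. Pax8 and Pax2 were thus at like CPM in Control, while in DCKO Pax2 was far below both relatives.

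Genes of other sites of Pax2 expression were measured beside it. Of 8 interneuron genes, not all of them inhibitory, 5 were lower in DCKO and 0 higher, against 8.11% and 8.93% of all tested genes. Their median log2 fold change was -4.25. Their summed level was 25.6 and 67.4 CPM in the Control embryos, against 6.50 and 8.71 in the DCKO embryos. The groups overlapped for Gad1 (log2 fold change 0.07) and Dmrt3 (-1.64). Lbx1, with the largest fall of the list, had 36 and 94 counts in the Control libraries and 0 in both DCKO libraries. Lhx1, a LIM homeobox gene of early inhibitory neurons that are often Pax2-positive, fell from 8.89 and 14.2 CPM to 0.600 and 0.108 (log2 fold change -5.00, adjusted p 0.0170 in edgeR). Of the 8 genes, 3 were lower without Control 1 and 0 without Control 2. All 8 genes were higher in Control 2 than in Control 1, by at least 1.5 times, whereas Pax2 was nearly equal in the Controls. Of 9 otic and placode genes, 6 were tested, 1 was higher and 0 were lower, and the defining otic gene Oc90 was at 0 in all 4 libraries. Eya1, a placode and mesenchyme factor, rose from 9.45 and 7.79 CPM to 18.3 and 18.5 (adjusted p 0.0280 in edgeR), a call that was lost without either Control, with library totals and with a replicate block. Of 8 optic and pigment cell genes 4 were tested, and the summed level of the 8 was 4.57 and 6.05 CPM in the Control embryos, against 10.8 and 7.47 in the DCKO embryos. The part of these cells in the fall of Pax2 was not tested.

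Irx2 (ENSMUSG00000001504, chromosome 13, 72628820 to 72634198) and Irx1 (ENSMUSG00000060969, chromosome 13, 71957921 to 71963723) are neighbours of 1 Iroquois cluster, 665.1 kb apart, and both fell. Irx2 measured 67.9 and 53.7 CPM in the Control embryos, against 24.5 and 18.8 in the DCKO embryos. Both DCKO embryos were well below both Controls. The fitted level was 2.80-fold lower, or -1.49 on the log2 scale (SE 0.22, edgeR adjusted p 0.0164). Without Control 1 or Control 2 it was -1.31 or -1.68 with adjusted p-values of 0.0924 and 0.0619. In the authors' deposited table Irx2 had -1.43 and a false discovery rate of 1.32e-05.

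Irx1 measured 71.6 and 58.7 CPM in the Control embryos, against 39.2 and 39.2 in the DCKO embryos, again with no overlap, and a smaller change of 1.66-fold (log2 fold change -0.73, SE 0.17, adjusted p 0.0430 in edgeR). This call was the least firm of the 4. It was lost without Control 1 (-0.59, adjusted p 0.290 in edgeR), without Control 2 (-0.90, 0.143) and without DCKO 1 (-0.74, 0.0534). The authors' deposited table gives Irx1 -0.68 with a false discovery rate of 0.0519. The log2 ratio of Irx1 to Irx2 was 0.08 and 0.13 in Control and 0.68 and 1.06 in DCKO, so the pair was nearly balanced in Control and Irx1 exceeded Irx2 in both DCKO embryos.

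Of the other 4 Iroquois genes, 1 was lower and 0 higher, against 8.11% and 8.93% of all tested genes. Irx3, in the second cluster on chromosome 8, fell from 92.7 and 83.6 CPM to 55.5 and 58.5 (log2 fold change -0.63, adjusted p 0.0492 in edgeR). This call was lost with upper-quartile scaling, without a filter, on TPM in limma, with a replicate block and without either Control. Its list had a median log2 fold change of -0.35. Of the other 3 neural Pax genes, 2 were lower. Pax7, a dorsal neural tube and midbrain factor, fell from 42.8 and 34.8 CPM to 11.5 and 9.90 (-1.86, adjusted p 0.00927 in edgeR). Pax6, of forebrain and hindbrain, fell from 23.7 and 40.8 CPM to 11.3 and 12.9 (-1.41, adjusted p 0.0340 in edgeR). It was higher in Control 2 than in Control 1, so the size of its difference depends on the Control used. Without either Control, 0 of these Pax genes passed in edgeR.

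**Figure D3:**
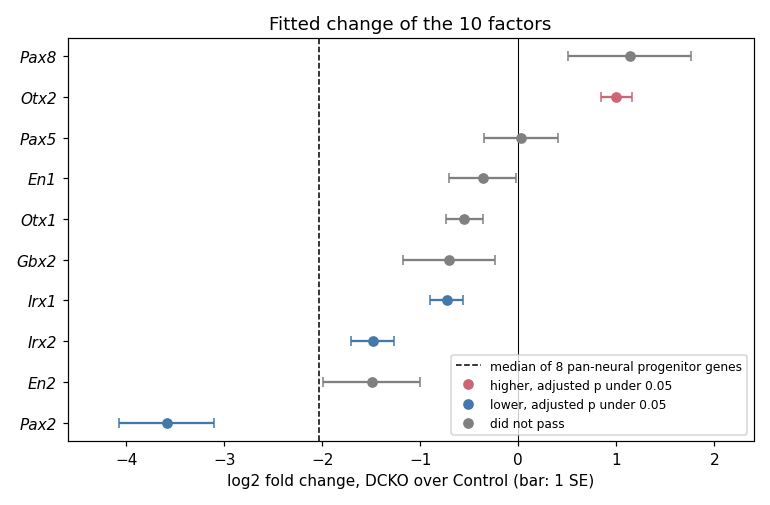
Each point is the fitted log2 fold change of DCKO over Control in edgeR with a bar of 1 SE, coloured by the call at an adjusted p under 0.05; the dashed line is the median of 8 pan-neural progenitor genes. Pax2 is the only member beyond that line, and Otx2 is the only called member above 0.

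Of 16 genes of isthmic signals and their feedback genes, 1 was higher and 0 were lower in edgeR. Over all tested genes, 8.93% were higher and 8.11% lower. The median log2 fold change of the 16 was 0.17. Both DCKO libraries lay above both Control libraries for 5 genes and below them for 1, and the groups overlapped for 10. Over all tested genes, the shares were 33.6% above and 32.9% below. The ligands Fgf8 and Wnt1 were among those above, without passing, and the ligand Fgf17 overlapped (log2 fold change -0.76). The gene below was the feedback gene Spry2 (-0.72). Fgf18, a ligand of the FGF8 subfamily, rose from 5.97 and 4.53 CPM to 16.2 and 10.7 (log2 fold change 1.36, adjusted p 0.0403 in edgeR). This call was lost with library totals, on TPM in limma and without either Control, and without DCKO 2 the list had 4 higher genes. Fgf8 measured 6.55 and 3.48 CPM in the Control embryos, against 8.80 and 9.63 in the DCKO embryos (0.88, adjusted p 0.149). Wnt1 measured 19.6 and 11.2 in the Control embryos, against 37.9 and 29.9 in the DCKO embryos (1.14, adjusted p 0.0601). Whether transcripts of the Wnt1-cre transgene add to the Wnt1 counts was not tested. Because all 16 genes were lower in Control 2 than in Control 1, comparisons with a single Control give different sizes.

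Of 12 other midbrain genes, 2 were lower and 0 higher, with a median of -0.28, against 8.11% lower and 8.93% higher of all tested genes. Tal2, a factor of midbrain GABA neurons, fell from 55.6 and 29.7 CPM to 7.65 and 5.55 (log2 fold change -2.69, adjusted p 0.0141 in edgeR), and the tectal ephrin Efna2 from 103.4 and 103.7 to 55.3 and 29.7 (-1.29, adjusted p 0.0460). All 3 genes of the rhombic lip and dorsal hindbrain fell. Atoh1, the proneural gene of cerebellar granule cell precursors, went from 10.4 and 17.7 CPM to 2.08 and 0.893 (-3.24, adjusted p 0.0181 in edgeR), and Olig3 from 17.0 and 23.8 to 0.475 and 0.650 (-5.18, adjusted p 0.00583). Of 14 forebrain genes, 12 were tested, and 1, Lhx2, passed as lower (-3.60, adjusted p 0.0490 in edgeR). It had 9.09 and 44.3 CPM in Control, so the size of its difference depends on the Control used, and its call was lost without Control 2 or DCKO 2, with upper-quartile scaling, in limma-voom and with a replicate block. Without Control 1 and without Control 2, 0 and 1 of the midbrain genes and 2 and 1 of the rhombic lip genes passed as lower in edgeR.

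General neural genes fell in the same libraries, by more than most of the members. Of 8 pan-neural progenitor genes, 7 were lower in DCKO, with a median log2 fold change of -2.04 and all 8 lower in both DCKO embryos. Sox3, a SoxB1 progenitor factor, fell by 2.91 on the log2 scale (adjusted p 0.00602 in edgeR), and Sox2, named here after its value was seen, by 0.89 (adjusted p 0.0208). Of 8 pan-neuronal genes, 4 were lower, with a median of -1.39. Over all tested genes, 8.11% were lower and 8.93% higher. Without either Control, 3 of the progenitor genes passed as lower. Markers of other cells rose, with 10 of 12 surface ectoderm, 7 of 10 cranial mesenchyme, 3 of 7 neural crest and 7 of 11 endothelial genes higher and 0 lower, while 7 of 8 erythroid genes were lower. The summed surface ectoderm level was 17.5 and 30.4 CPM in the Control embryos, against 366.7 and 483.7 in the DCKO embryos. In this bulk tissue, fewer cells of a type and less RNA per cell cannot be told apart, and the part of these cell types in the members' values was not tested.

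Each member was therefore also set against the geometric mean of the 8 progenitor genes within its library, as values without a test. On that scale 8 of 10 members were higher in both DCKO embryos than in both Controls, Pax2 was lower in both, and En2 overlapped. The geometric mean itself changed by -2.20 on the log2 scale, so a gene with unchanged CPM rises relative to it. The median log2 fold change of all tested genes in CPM was 0.03, and the share that rises on this scale was not computed. The count of 8 of 10 is therefore not a result about the members. Otx1, En1, Gbx2, Irx1 and Irx2 rose by less than the geometric mean fell, and Otx2, Pax5 and Pax8 by more. Otx2 went from -2.01 and -2.08 in Control to 0.69 and 1.62 in DCKO on the log2 scale, and Pax8 from -4.98 and -6.25 to -1.98 and -2.79. En1 went from -2.65 and -3.78 to -1.61 and -0.99, and Irx2, which fell in CPM, from -1.73 and -2.21 to -1.47 and -1.05. Pax2 went from -5.57 and -5.79 to -8.09 and -6.25, lower relative to progenitor genes as well. The choice of reference matters, since Sox2 fell less than most of its list. Against Sox2 alone, 4 members, Otx1, Otx2, Pax5 and Pax8, were higher in both DCKO embryos. Pax2 and Irx2 were lower in both, and the groups overlapped for En1, En2, Gbx2 and Irx1. Here too, the share of all tested genes was not computed. Otx2 was thus higher and Pax2 lower on each of these scales.

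**Figure D4:**
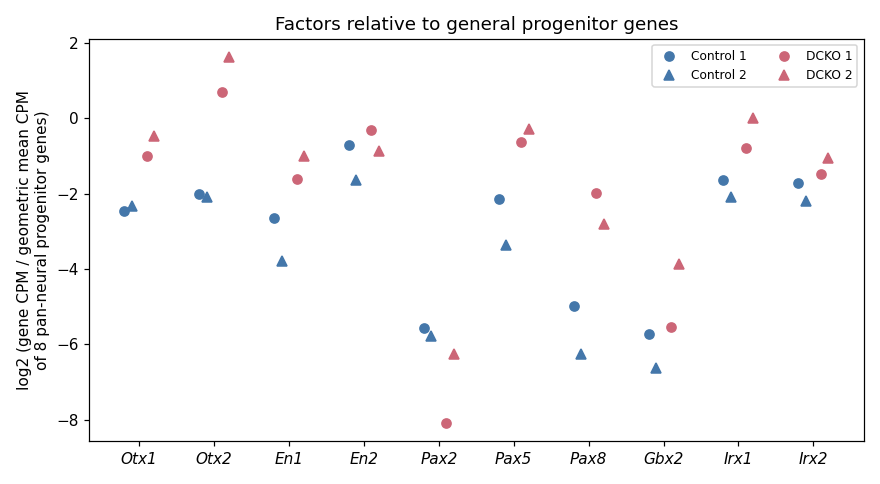
Each symbol is 1 library, giving the log2 ratio of a factor's CPM to the geometric mean CPM of 8 pan-neural progenitor genes, with Control in blue and DCKO in red. DCKO symbols lie above Control symbols for 8 factors, below for Pax2, and overlap for En2. The geometric mean itself was lower in both DCKO libraries, so a gene with unchanged CPM lies higher in DCKO on this scale.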

How the data were processed

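RNA was measured in 4 libraries of dissected cranial neural tube, 2 per group. The authors deposited whole-number counts per Ensembl gene, TPM per gene, and a table of their own comparison with log2 fold changes, p-values and false discovery rates. Per the submitters' processing notes, TopHat2 2.1.1, StringTie, edgeR 3.16.5, limma 3.30.13 and R 3.3.2 were used on mouse builds mm10 and GRCm38; their roles, and the use of strand in counting, are not given in the sources used here. Symbols and positions are those of GENCODE M21 on GRCm38; 54409 of 54532 IDs matched.

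Counts were tested with edgeR 4.0.16 in R 4.3.3 (quasi-likelihood, group as the only term, 2 residual degrees of freedom), after filterByExpr (minimum count 10, total 15) and TMM scaling, with two-sided Benjamini-Hochberg adjusted p-values over 19207 genes at 0.05. SE was derived from the fold change and F. The test was checked on simulated data. Alternatives used other scalings, no filter, DESeq2 1.42.0, limma 3.58.1 on voom or log2(TPM + pseudocount), a replicate term, and each library left out. The 10 members and 17 further gene lists were chosen with earlier results of these data known. Named genes are the members, Lats1, Lats2, Wnt1, Fgf8 and up to 3 called genes of each list by p, or the smallest p where none passed; Xist, Sox2, genes overlapping a member and Hox genes at 0 were added after values were seen. Defining markers at 0 counts were likewise added.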

Additional observations from a re-analysis of the deposited data

How the results depend on the processing

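Otx2, Pax2 and Irx2 kept their direction and call in edgeR with the 3 other scalings and without a filter, in DESeq2, in limma-voom and on TPM filtered at a mean of 1; Irx1 did so except on log2(TPM + 0.1) (adjusted p 0.0526 in limma). On unfiltered log2(TPM + 1), limma called 0 members higher and 0 lower, and 0 genes higher and 0 lower in all, with 2387 and 4059 at an unadjusted p under 0.05 and, of the members, 1 and 5. Library totals gave 5 members lower, adding Otx1 and En2, and 3744 genes lower; DESeq2 gave 2678 genes lower. Filtered TPM gave 1007 genes higher with a pseudocount of 1 and 958 with 0.1. With single libraries left out, members higher ranged from 0 to 2 and members lower from 0 to 3, genes higher from 155 (without Control 2) to 2619 (without DCKO 2) and genes lower from 72 to 2565; the lone library is assumed to vary like the other group. En1 took the opposite sign without Control 1 (0.21, against -0.81 without Control 2). Pax5, near 0, did so with library totals (-0.33), no filter (-0.011), DESeq2 (-0.032), without Control 2 (-0.45, against 0.66 without Control 1) and without DCKO 1 (-0.22). Against Sox2 alone, chosen after seeing the data, 4 members were higher relative to progenitor genes in place of 8. With the replicate number as a block, 1002 genes were higher and 776 lower; En2 then passed (adjusted p 0.0252 in edgeR) and Irx1 did not (0.0926). Same-numbered libraries share only a number (correlation of deviations -0.0371). The cause of these changes was not tested. Precision is limited by 2 embryos per group, and by depth only for Pax2 in DCKO.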
